A study of Mus musculus with 6 samples.

Results

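The genes described here encode the nuclear subunits of respiratory chain complexes II, III and IV, of cytochrome c, and of complex V, the ATP synthase. They were chosen by symbol from the gene table: Sdha to Sdhd, every Uqcr gene and Cyc1, Cycs, every gene named Cox4 to Cox8 followed by a letter, and every gene named Atp5 followed by a letter. The rule used no measured value and took 47 of the 24182 genes in the table. Complex II had 4 of them, complex III 9, cytochrome c 1, complex IV 16 and complex V 17. The complex IV set includes Cox6c2, which the table annotates as a processed pseudogene, and Cox7a2l, a relative of subunit VIIa that joins complexes III and IV in supercomplexes.

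RNA was sequenced from Th17 cells of the mouse, a class of CD4 helper T cell known for making interleukin 17. The Sirt2 KO group, 3 libraries, had Sirt2 disrupted with CRISPR/Cas9, and the Sirt2 WT group, 3 libraries, was the control under the same stimulation. Sirt2 encodes a NAD-dependent deacetylase. All cells received anti-CD3 at 0.5 μg/mL together with anti-CD28 at 1 μg/mL over 72 hours before RNA extraction, and both groups carry the treatment label untreated. The labels name neither the guide nor what the control cells received, and they give no age, strain or source of the replicates. The p-values here therefore cover the spread between the 6 libraries, which may be technical in origin.

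Complex II oxidises succinate in the tricarboxylic acid cycle and passes the electrons to ubiquinone. Complex III hands electrons from ubiquinol to cytochrome c, complex IV passes them to oxygen, and complex V uses the proton gradient that the chain builds to make ATP. Complex II is encoded in the nucleus alone, whereas complexes III, IV and V also hold subunits made from mitochondrial DNA. T cells build up mitochondrial mass and respiration as they are activated and divide.

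The sum of gene FPKM (fragments per kilobase, normalized to sequencing depth) was 303772 to 321734 per library, and read depth is unknown because no counts were used. Sirt2 itself was at 11.2, 13.5 and 10.9 FPKM in KO, against 20.7, 19.9 and 21.9 FPKM in WT, so each library followed its label and Sirt2 RNA remained detectable in KO. KO replicate 3 stood apart from the other KO libraries. Across tested genes its log2 values had a correlation of 0.981 and 0.979 with KO replicates 1 and 2 but of about 0.990 with each WT library, and KO replicates 1 and 2 had one of 0.992 with each other. The T cell markers Cd3e, Cd3g, Cd4 and Cd28 and the Th17 markers Il17a, Il17f, Il23r and Ccr6 were detected in every library. Of 16 markers of myeloid, B, cytotoxic, erythroid and fibroblast cells, 12 were under 1 FPKM throughout and 6 were higher in all KO than in all WT libraries. Their summed level was 16.5, 17.1 and 16.8 FPKM in KO, against 9.24, 9.28 and 8.98 FPKM in WT, and the part of these cells in the values below was not tested. Within that sum the myeloid marker Lyz2 was at 8.31, 9.44 and 4.24 FPKM in KO, against 1.38, 1.03 and 0.782 FPKM in WT. The CD8 T cell marker Cd8b1 was at 3.24, 3.18 and 5.92 FPKM in KO, against 3.75, 4.89 and 3.84 FPKM in WT. KO replicate 3 was highest for Cd8b1 and lowest of KO for Lyz2, but markers of the same cell types differed in this order. Cd8a was lowest of KO in KO replicate 3, at 0.436, 0.409 and 0.225 FPKM in KO, against 0.0931, 0.0856 and 0.120 FPKM in WT. Cd68 and Csf1r were highest in KO replicate 3, as was Klrd1, while Itgam, Adgre1 and Prf1 lay between the other KO libraries. In bulk RNA, fewer cells of a type and less RNA per cell cannot be told apart.

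Promoters of respiratory chain genes often carry sites for NRF1 and for GABP, an ETS family factor, both of which are known to switch on nuclear genes of the chain. RefSeq promoter windows (GRCm38.p6, 250 bases before to 50 bases after the start) were found for 35 of the 47 genes and searched on both strands. The NRF1 letters, GCGCA and GCGC with any 1 base between them, were in 10 of 35 (28.6%), against 13.4% of tested genes and 5.19% of all genes with a window. The ETS letters CCGGAAG were in 13 of 35 (37.1%), against 23.8% and 9.93%, and the letters AAGATGGC of YY1 were in 3 of 35 (8.57%), against 6.21% and 3.19%. No overlap between these motifs was removed. Both the NRF1 and the ETS letters were in the windows of Sdhd, Cox6a1, Atp5h and Atp5k, which span complexes II, IV and V. Their 250 bases upstream of the start are shown, all from the minus strand, at chr9:50603850-50604099, chr5:115348959-115349208, chr11:115419920-115420169 and chr5:108434400-108434649. Capitals mark the NRF1 and ETS letters on either strand, and the ETS match of Atp5k lies beyond the start and is not in the stretch shown.
Sdhd: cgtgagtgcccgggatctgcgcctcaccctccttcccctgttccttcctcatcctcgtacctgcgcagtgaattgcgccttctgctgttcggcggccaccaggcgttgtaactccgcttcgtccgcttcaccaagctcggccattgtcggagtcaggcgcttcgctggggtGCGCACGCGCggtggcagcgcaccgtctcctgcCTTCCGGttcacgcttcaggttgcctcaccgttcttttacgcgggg
Cox6a1: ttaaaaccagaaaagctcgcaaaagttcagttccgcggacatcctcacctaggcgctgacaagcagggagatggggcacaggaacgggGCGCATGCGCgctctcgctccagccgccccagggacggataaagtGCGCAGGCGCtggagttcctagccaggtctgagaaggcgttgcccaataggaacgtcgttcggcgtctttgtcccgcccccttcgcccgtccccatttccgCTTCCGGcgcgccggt
Atp5h: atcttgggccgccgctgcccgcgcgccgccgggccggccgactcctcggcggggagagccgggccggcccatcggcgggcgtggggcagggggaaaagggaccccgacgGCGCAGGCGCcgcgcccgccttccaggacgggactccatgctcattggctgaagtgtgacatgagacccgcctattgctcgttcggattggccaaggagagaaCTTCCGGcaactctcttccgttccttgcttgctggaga
Atp5k: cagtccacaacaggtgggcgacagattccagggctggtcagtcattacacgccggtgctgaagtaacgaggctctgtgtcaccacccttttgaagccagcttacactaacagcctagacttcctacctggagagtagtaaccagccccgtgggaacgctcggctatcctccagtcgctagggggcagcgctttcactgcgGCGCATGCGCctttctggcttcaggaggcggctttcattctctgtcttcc

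With all 6 libraries, no subunit gene passed the test. For most of them KO replicate 3 lay on the other side of the WT mean from KO replicates 1 and 2. The difference from that mean was above 0 for 41, 43 and 5 of the 44 tested genes in KO replicates 1 to 3. Over all 10873 tested genes it was above 0 for 4376, 4880 and 5613. A gene was tested if 3 or more libraries had it at 1 FPKM or above, and 44 of the 47 qualified. Cox4i2, Cox6a2 and Cox6b2, isoforms typical of lung, of heart and skeletal muscle and of testis, did not. By limma with Benjamini-Hochberg adjustment over all 10873 tested genes, 0 of 44 were called at adjusted p under 0.05 (0.11% of all tested genes were, 0.092% higher and 0.0184% lower), and 0 of 44 had an unadjusted p under 0.05 (5.61% of all tested genes had). Limma adjusted p ran from 0.843 to 0.993. In the authors' deposited table, 102 genes had a q-value under 0.05 and 0 of the 47 were among them.

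The log2 difference, KO minus WT in log2(FPKM + 1), was above 0 for 43 of 44 genes (41.3% of all tested genes). Its median was 0.090 over the 44 genes and -0.025 over all tested genes, and it ran from -0.013 for Uqcrc2 to 0.30 for Cox7a2. For 0 of 44 genes were all 3 KO libraries above all 3 WT libraries (4.28% of all tested genes), and for 0 of 44 were they all below (6.88%).

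Set against the WT mean one KO library at a time, the median log2 difference of the 44 genes was 0.17 in KO replicate 1, 0.23 in KO replicate 2 and -0.11 in KO replicate 3. The medians over all tested genes were -0.044, -0.028 and 0.0057 in the same libraries. The 3 WT libraries had medians of -0.031, 0.013 and 0.023 for the 44 genes, so each KO library lay outside the WT range. KO replicate 1 was above every WT library for 33 of 44 genes (27.0% of all tested genes) and KO replicate 2 for 41 of 44 (31.8%), whereas KO replicate 3 was above every WT library for 0 of 44 (33.2%). Both KO replicates 1 and 2 were above every WT library for 33 of 44 genes (18.9%) and both below for 0 of 44 (31.2%), and KO replicate 2 was below every WT library for 0 of 44 (42.4%). KO replicate 3 was below every WT library for 25 of 44 genes (31.2%), and it was below both other KO libraries for 40 of 44 (35.0%). As a share of all transcript FPKM in the library, the 47 genes made up 1.55, 1.55 and 1.33% in KO replicates 1 to 3, against 1.38, 1.42 and 1.44% in WT replicates 1 to 3.

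**Figure D1:**
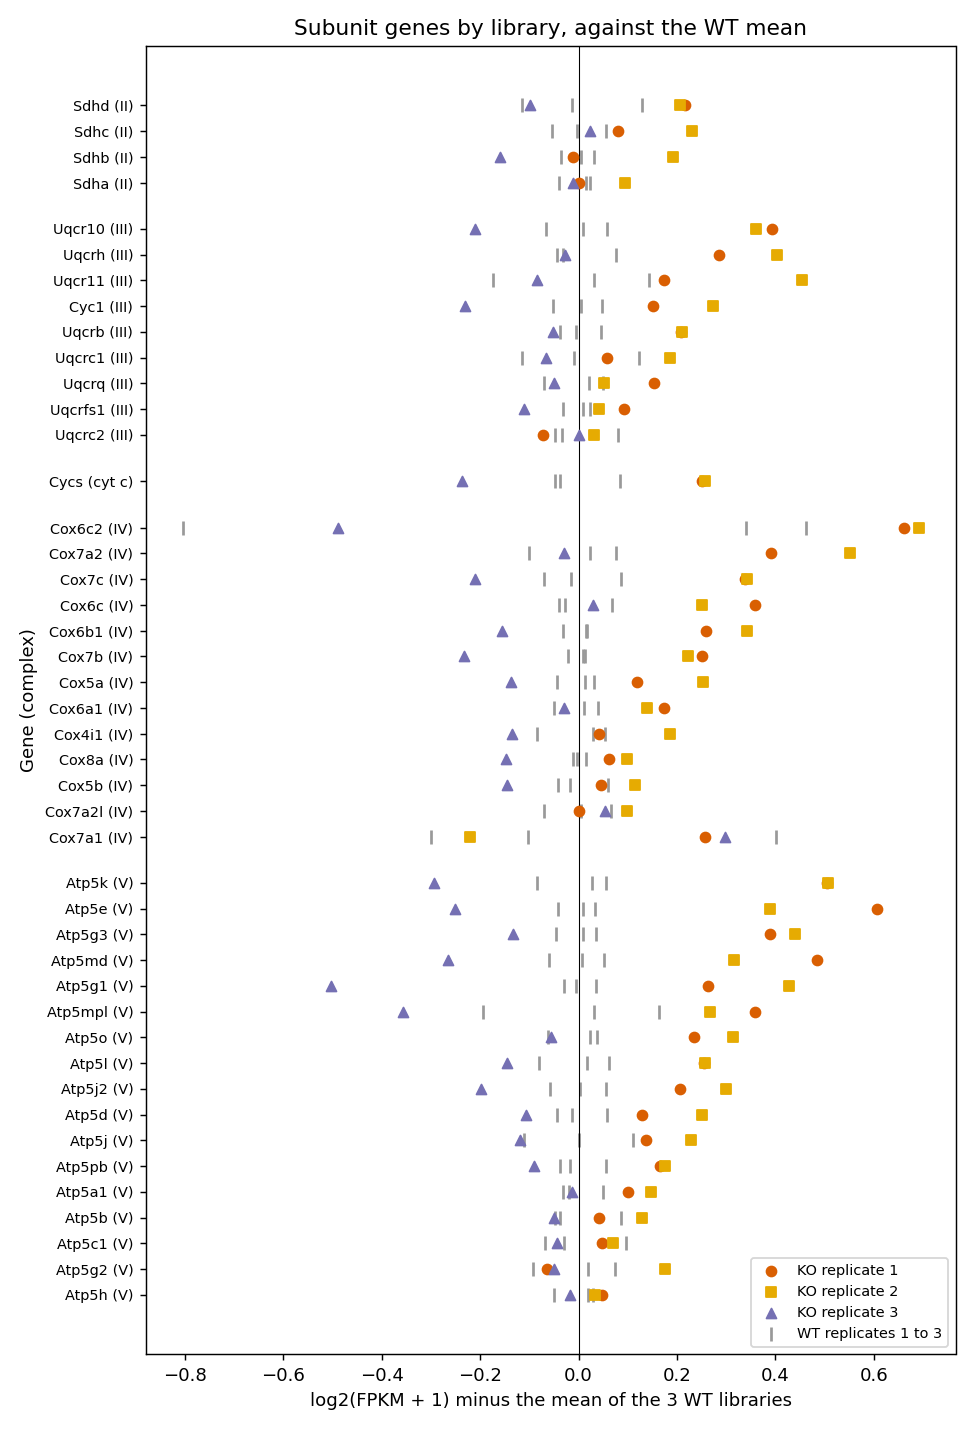
Difference of each of the 44 tested genes from its WT mean, in log2(FPKM + 1), by library, with genes grouped by complex (cyt c, cytochrome c) and ordered within it by the difference without KO replicate 3. Circles, squares and triangles are KO replicates 1, 2 and 3 and grey ticks the 3 WT libraries; KO replicate 3 is below both other KO libraries for 40 of the 44 genes.

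Complex II had a median log2 difference near that of complex III (0.068 and 0.065). By library it was 0.041, 0.20 and -0.054 in KO replicates 1 to 3. With the trend with gene length removed it was 0.075 (0.063 over the 44 genes). KO replicate 2 was above every WT library for 4 of 4 complex II genes (31.8% of all tested genes). Sdhd, an anchor of the complex in the inner membrane (ENSMUSG00000000171, GRCm38 chromosome 9, 50596357 to 50603812, minus strand), was at 119.7, 119 and 96.0 FPKM in KO, against 94.9, 102 and 112 FPKM in WT. KO replicates 1 and 2 were above every WT library and KO replicate 3 was within their range. Sdhc, the other anchor, was at 29.1, 32.4 and 27.9 FPKM in KO, against 26.4, 27.4 and 28.6 FPKM in WT, and had the smallest p of the complex (limma adjusted p = 0.866). Sdha, the flavoprotein that binds succinate, was at 71.3, 76.1 and 70.7 FPKM in KO, against 69.3, 72.0 and 72.4 FPKM in WT, so the groups overlapped. Sdhb, the iron-sulphur protein, averaged 49.4 ± 6.23 FPKM in KO and 48.9 ± 1.17 FPKM in WT (SD, n = 3 each).

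In complex III the small subunits had a larger median difference from WT than the core, though not in KO replicate 3. The median log2 difference over the complex was 0.065, with 0.15, 0.21 and -0.067 in KO replicates 1 to 3. It was 0.034 over the 4 genes Uqcrc1, Uqcrc2, Cyc1 and Uqcrfs1 and 0.18 over the 5 small subunits, and in KO replicate 3 it was -0.088 and -0.053, a contrast that was not tested. Length differed between these sets, with 0 of the 4 core genes and 4 of the 5 small subunits under 1000 bases. With the trend with length removed, the core and small subunit medians were 0.024 and 0.13. Uqcrh, the hinge protein next to cytochrome c1 (ENSMUSG00000063882, chromosome 4, 116066965 to 116075071, minus strand), was at 73.7, 80.1 and 59.1 FPKM in KO, against 59.0, 58.4 and 63.6 FPKM in WT. KO replicates 1 and 2 lay above WT and KO replicate 3 among the WT values, and the log2 difference of 0.22 (95% interval -0.039 to 0.48) did not pass (limma adjusted p = 0.843). Uqcrb, a small subunit known as a ubiquinone-binding protein, was at 69.6, 69.7 and 57.9 FPKM in KO, against 62.0, 58.5 and 59.8 FPKM in WT. Uqcr11, the smallest subunit of the complex, was at 26.7, 32.6 and 22.1 FPKM in KO, against 24.1, 26.1 and 20.7 FPKM in WT, with overlapping groups. The small subunits Uqcr10 and Uqcrq had log2 differences of 0.18 and 0.052.

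For every subunit of the complex III core the groups overlapped, as they did for all 44 genes. Uqcrc2, a core protein on the matrix side (ENSMUSG00000030884, chromosome 7, 120635176 to 120659524, plus strand), was at 104, 112 and 109 FPKM in KO, against 106, 107 and 116 FPKM in WT. It was the 1 gene of the 44 with a log2 difference below 0 and the 1 gene that KO replicate 1 had below every WT library (44.4% of all tested genes); after scaling to a common median its difference was 0.029. Uqcrfs1, the Rieske iron-sulphur protein, was at 117, 113 and 101 FPKM in KO, against 107, 110.0 and 111 FPKM in WT. KO replicate 3 had the lowest Uqcrfs1 value of the 6 libraries. Cyc1, cytochrome c1, averaged 71.1 ± 12.5 FPKM in KO and 67.2 ± 2.36 FPKM in WT, and Uqcrc1, the other core protein, 54.9 ± 4.90 FPKM in KO and 52.7 ± 4.47 FPKM in WT (SD, n = 3 each).

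Cycs, cytochrome c, which carries electrons between complexes III and IV and triggers apoptosis when released (ENSMUSG00000063694, chromosome 6, 50562563 to 50566538, minus strand), was at 84.7, 85.2 and 60.2 FPKM in KO, against 68.7, 69.2 and 75.4 FPKM in WT. KO replicates 1 and 2 exceeded every WT library and KO replicate 3 was below every one, so that the KO libraries bracketed WT. The log2 difference of 0.091 (95% interval -0.22 to 0.40) did not pass the test (limma adjusted p = 0.908).

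Complex IV held the smallest p-values of the 44 genes. Its median log2 difference was 0.095 over 13 tested genes, with 0.25, 0.22 and -0.14 in KO replicates 1 to 3. Cox7a2, the general form of subunit VIIa (ENSMUSG00000032330, chromosome 9, 79755361 to 79759878, minus strand), was at 98.0, 109.6 and 72.9 FPKM in KO, against 69.4, 78.5 and 75.7 FPKM in WT. KO replicate 3 was inside the WT range and the others above it. The log2 difference of 0.30 (SE 0.14, 95% interval -0.026 to 0.64) did not pass (limma adjusted p = 0.843). Cox6c, a membrane subunit (ENSMUSG00000014313, chromosome 15, 35925886 to 35938246, minus strand), was at 27.7, 25.6 and 21.8 FPKM in KO, against 20.9, 22.4 and 20.7 FPKM in WT. Its KO replicate 3 value was again within the WT values, and its unadjusted limma p of 0.0551 was the smallest of the 44 genes (adjusted p = 0.843). Cox6c and its processed pseudogene Cox6c2 can share reads, and Cox6c2 was listed at 3.18, 3.27 and 0.883 FPKM in KO, against 2.64, 2.35 and 0.513 FPKM in WT.

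Cox8a and Cox4i1, abundant genes of complex IV, had smaller log2 differences than Cox7a2 and Cox6c. Cox8a, subunit VIII, was at 207, 213 and 179 FPKM in KO, against 200.5, 197 and 198 FPKM in WT. Cox4i1, the general form of subunit IV, was at 159.7, 177 and 141 FPKM in KO, against 146, 161 and 158 FPKM in WT. In both genes KO replicate 3 was the lowest of the 6 libraries, and the log2 differences of 0.0041 and 0.031 changed sign once the trend with gene length was removed (-0.044 and -0.015). Cox6a1, the general form of VIa, was at 164, 160.3 and 143 FPKM in KO, against 149, 147 and 140.5 FPKM in WT. Its log2 difference of 0.095 did not pass the test (limma adjusted p = 0.870).

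Cox6b1, the general form of VIb, which faces the cytochrome c side, was at 138, 146 and 103 FPKM in KO, against 112, 116 and 116 FPKM in WT. Cox7b, a subunit encoded on the X chromosome, was at 97.8, 95.9 and 69.7 FPKM in KO, against 82.5, 80.8 and 82.8 FPKM in WT. For both, KO replicates 1 and 2 were above every WT library and KO replicate 3 below every one. Cox7a2l was even across libraries, at 86.6, 92.8 and 89.9 FPKM in KO, against 82.4, 86.9 and 90.7 FPKM in WT. Of the other general subunits, Cox7c had a log2 difference of 0.16, Cox5a 0.079 and Cox5b 0.0047.

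Tissue-restricted isoforms of complex IV were at or near 0. Cox7a1, the heart and skeletal muscle form of VIIa, was at 1.595, 0.863 and 1.67 FPKM in KO, against 1.87, 1.02 and 0.764 FPKM in WT, and passed the filter at that low level. Cox4i2 was listed at 0, 0.506 and 0.445 FPKM in KO, against 0.247, 0.660 and 0 FPKM in WT. Cox4i2 was thus listed at 0 in 1 library of each group. Cox6a2 was at 0.252, 0.0853 and 0.437 FPKM in KO, against 0.311, 0 and 0.388 FPKM in WT. Cox6b2 was at 0.753, 0.432 and 0.832 FPKM in KO, against 0.435, 0.669 and 0.918 FPKM in WT. Summed over transcripts, FPKM was higher for the general isoform of each of these subunits in all 6 libraries.

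**Figure D2:**
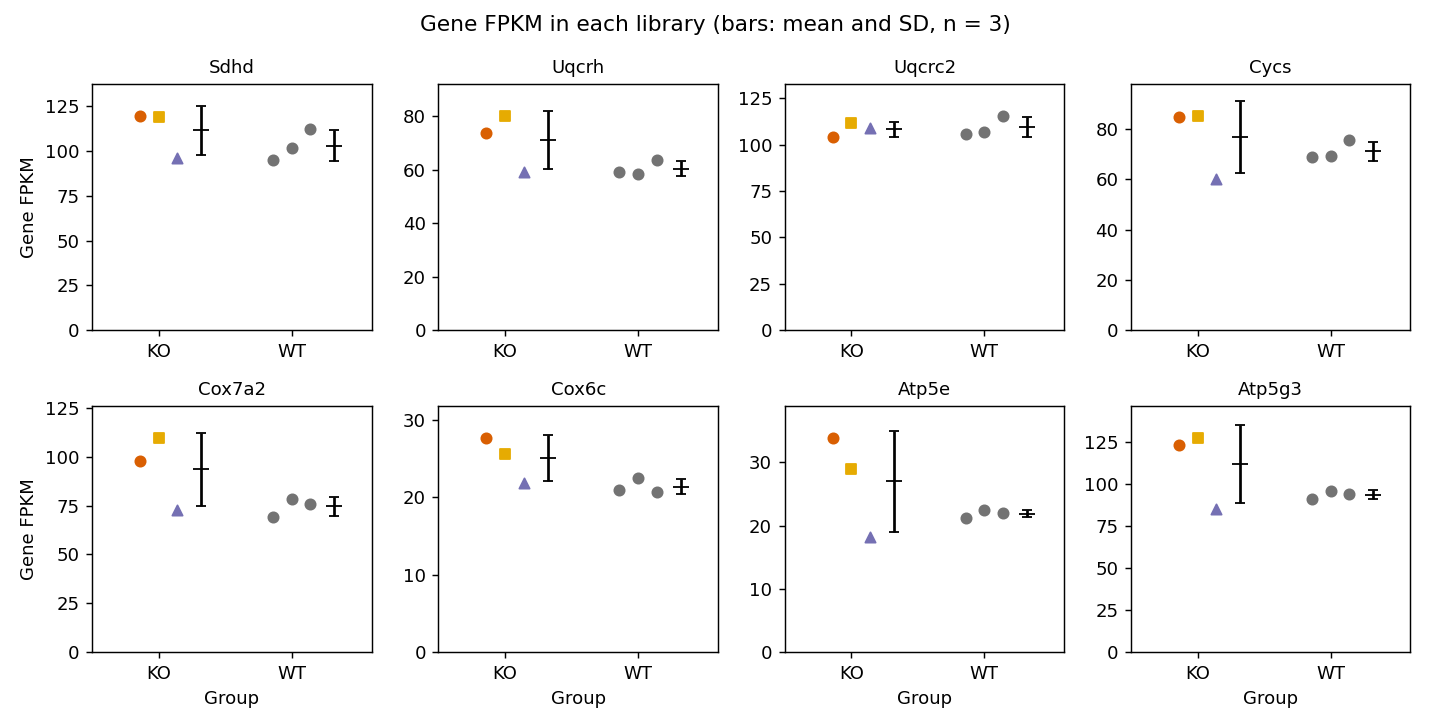
Gene FPKM of 8 subunit genes in each library, with KO on the left (circle, square and triangle for replicates 1, 2 and 3) and WT on the right (circles); the bar beside each group is its mean with SD (n = 3). Values of KO replicate 3 are within or below the WT values, while KO replicates 1 and 2 are above WT in 7 of the 8 genes, Uqcrc2 being the exception.

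In complex V the small membrane subunits had medians farther from WT in each KO library than those of F1, a contrast not tested. The median log2 difference was 0.090 over 17 genes, with 0.21, 0.26 and -0.12 in KO replicates 1 to 3. The F1 head carries the catalytic sites, in alternating alpha (Atp5a1) and beta (Atp5b) subunits. Atp5b was at 470.4, 500.0 and 442 FPKM in KO, against 442, 445 and 485 FPKM in WT, and the groups overlapped. Atp5a1 was at 387, 400.2 and 358 FPKM in KO, against 354, 357 and 374 FPKM in WT. The log2 differences of 0.040 for Atp5b and 0.078 for Atp5a1 were within the spread between replicates (limma adjusted p = 0.921 and 0.871). Atp5c1 and Atp5d, the gamma and delta subunits, had log2 differences of 0.025 and 0.091.

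Atp5e, the epsilon subunit at the foot of the rotor (ENSMUSG00000016252, chromosome 2, 174461072 to 174464105, minus strand), had the widest log2 gap between KO libraries in F1, at 33.9, 29.0 and 18.2 FPKM in KO, against 21.2, 22.4 and 22.0 FPKM in WT. KO averaged 27.0 ± 7.999 FPKM and WT 21.9 ± 0.601 FPKM (SD, n = 3 each), and the SD in KO exceeded the difference of the means. Atp5o, the OSCP subunit that ties F1 to the peripheral stalk, was at 73.0, 77.1 and 59.5 FPKM in KO, against 59.2, 62.9 and 63.6 FPKM in WT. It had the smallest p of complex V (limma adjusted p = 0.847). The other stalk subunits Atp5pb, Atp5j and Atp5h had log2 differences of 0.084, 0.082 and 0.021. The membrane subunits Atp5k, Atp5md, Atp5l, Atp5j2 and Atp5mpl, which hold the complex together in dimers or stabilise it, had a median of 0.12, with 0.36, 0.30 and -0.27 in KO replicates 1 to 3. For all 5 of them KO replicates 1 and 2 were above every WT library and KO replicate 3 below every one. The 5 genes of the F1 head and central stalk had a median of 0.078, with 0.10, 0.15 and -0.050. All 5 membrane genes were under 1000 bases, against 1 of the 5 F1 genes. With the trend with length removed, the membrane and F1 medians were 0.073 and 0.060. Without KO replicate 3 as well they were 0.23 and 0.13.

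The c ring, which turns as protons pass, is built from 1 mature protein encoded by 3 genes whose transcripts differ in the targeting sequence. Atp5g3 (ENSMUSG00000018770, chromosome 2, 73908447 to 73911326, minus strand) was at 122.9, 127 and 85.2 FPKM in KO, against 90.7, 95.9 and 94.2 FPKM in WT. Atp5g1 was at 20.0, 22.6 and 11.4 FPKM in KO, against 17.0, 16.5 and 16.2 FPKM in WT, and in both genes KO replicate 3 was below every WT library. Atp5g2 was at 81.3, 96.2 and 82.2 FPKM in KO, against 79.7, 89.6 and 86.2 FPKM in WT, with overlapping groups. By summed transcript FPKM, Atp5g3 supplied 56.1, 53.9 and 50.3% of c subunit RNA in KO, against 51.5, 51.2 and 49.4% in WT. Atp5g2 supplied 29.1, 31.9 and 37.7% in KO, against 35.2, 37.4 and 35.2% in WT, and Atp5g1 14.8, 14.3 and 12.1% in KO, against 13.3, 11.4 and 15.4% in WT. The sources used here do not give how reads were divided among these near-identical mature sequences, so the shares are uncertain.

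Leaving out KO replicate 3 changed the outcome of the test. In that fit 16 of 44 genes rose (4.0% of all 10726 tested genes did) and 0 of 44 fell (6.14%), by limma with adjusted p under 0.05, and the median log2 difference was 0.20 (-0.039 over all tested genes). They were Uqcr10, Uqcrb and Uqcrh of complex III, Cycs, then Cox6b1, Cox6c, Cox7a2, Cox7b and Cox7c of complex IV, and Atp5e, Atp5g1, Atp5g3, Atp5j2, Atp5k, Atp5md and Atp5o of complex V. Complex II had 0 of 4, and all 4 had transcripts over 1000 bases in mean length. Of all tested genes of 1000 bases or more, 2.68% rose. Without this library Atp5k had a log2 difference of 0.51 (SE 0.062, limma adjusted p = 0.00944), Atp5e 0.50 (SE 0.074, adjusted p = 0.0159) and Cox7a2 0.47 (SE 0.073, adjusted p = 0.0173). Atp5g3 had 0.41 (SE 0.049) with the smallest adjusted p of the 16 genes (0.00905). Of the 16 genes, 15 were below their WT mean in KO replicate 3, the library left out. The fit without KO replicate 1 called 0 of 44 genes (0.0% higher and 0.0% lower over all tested genes), and the fit without KO replicate 2 called 0 of 44 (0.0371% higher and 0.0185% lower). The median log2 difference was 0.055 and 0.033 in those fits.

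Most subunit genes have short transcripts, and length moved with the differences in every KO library. Of the 44 genes, 27 (61.4%) had a mean transcript length, weighted by abundance, under 1000 bases, against 15.3% of all tested genes, a limit chosen after values were seen. Across all tested genes, which are not independent replicates, Spearman's correlation of length with the difference from the WT mean was -0.33 in KO replicate 1, -0.47 in KO replicate 2 and 0.23 in KO replicate 3. It was 0.25, 0.0065 and -0.24 in WT replicates 1 to 3. Without KO replicate 3, 14 of the 27 shorter genes rose (11.5% of all tested genes under 1000 bases) and 0 fell (3.78%). Of the 17 longer genes 2 rose, Cycs and Atp5g1 (2.68% of longer tested genes), and 0 fell (6.56%). When each library's trend with length was removed as well, an alternative added after the data were seen, 12 of 44 genes rose (4.3% of all tested genes) and 0 fell (2.77%). All 12 were among the 16, and the 4 no longer called were Uqcrb, Cox6c, Cox7b and Atp5j2. The median log2 difference was then 0.16 (0.0079 over all tested genes), and with all 6 libraries and the trend removed it was 0.063.

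**Figure D3:**
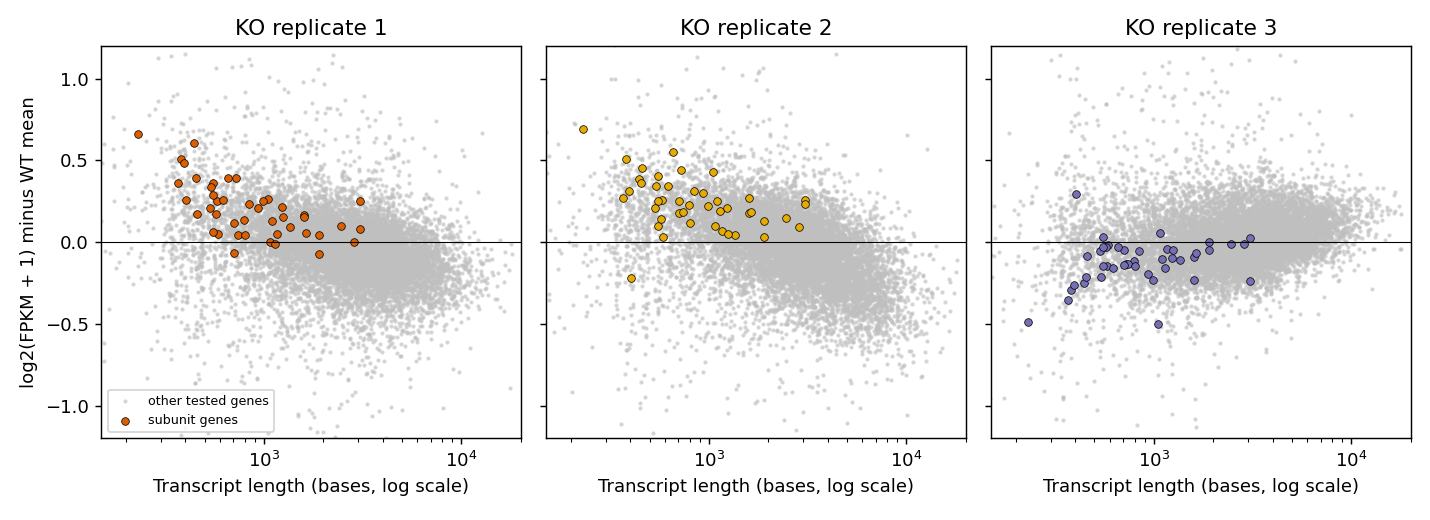
Difference from the WT mean in log2(FPKM + 1) against transcript length in bases on a log scale, for KO replicates 1 to 3. Grey points are other tested genes and coloured points the 44 subunit genes, and the 52, 36 and 20 tested genes beyond 1.2 in either direction lie outside the axes; short genes lean above 0 in KO replicates 1 and 2 and below it in KO replicate 3, and subunit genes lie among them.

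The 47 genes had 194 transcripts, of which 97 entered the test. No transcript passed, with 0 of 97 called by limma (0.0417% of all 19184 tested transcripts) and 1 of 97 at an unadjusted p under 0.05 (5.57%). Without KO replicate 3, 0 of 91 were called (0.0273% of all tested transcripts), with a smallest limma adjusted p of 0.107, and 25 of 91 had an unadjusted p under 0.05 (15.0% of all tested transcripts). A single transcript held over 90% of summed FPKM in 35 of the 47 genes, and the leading transcript was protein coding in 46. Protein-coding transcripts made up 98.0, 98.2 and 97.9% of the summed FPKM in KO, against 97.7, 97.9 and 97.7% in WT. Cox4i1 had a second protein-coding transcript, ENSMUST00000181586, at 0.0211, 6.25 and 25.0 FPKM in KO, against 25.2, 20.98 and 57.1 FPKM in WT. Its groups overlapped, and the log2 difference of -2.48 (SE 1.18) did not pass the test (limma adjusted p = 0.891). This transcript has the same start, end and number of exons as the leading Cox4i1 transcript, and they are 765 and 745 bases long. The sources used here do not give how reads were divided between them, so its values are uncertain.

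Levels of different genes are set side by side here as the summed FPKM of each gene's transcripts. The deposited gene FPKM divides by the union of all annotated exons, a relation that held within 0.1% for 10656 of 10801 genes, and it was less than 0.5 times the transcript sum for 20 of the 47 genes. Averaged over the 6 libraries, Atp5b was highest at 1029.8, followed by Atp5a1 at 476, Cox4i1 at 328 and Atp5g3 at 311 summed transcript FPKM. Levels in complex II ran from 30.4 (Sdhc) to 107 (Sdhd), in complex III from 35.7 (Uqcr11) to 148 (Uqcrh), and among the 10 general complex IV genes and Cox7a2l from 84.2 (Cox5b) to 328 (Cox4i1). Cycs stood at 81.9. Complex V was widest, from 28.5 (Atp5k) to 1029.8 (Atp5b), a ratio of 36.2, against ratios of 3.52, 4.14 and 3.89 in complexes II, III and IV.

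**Figure D4:**
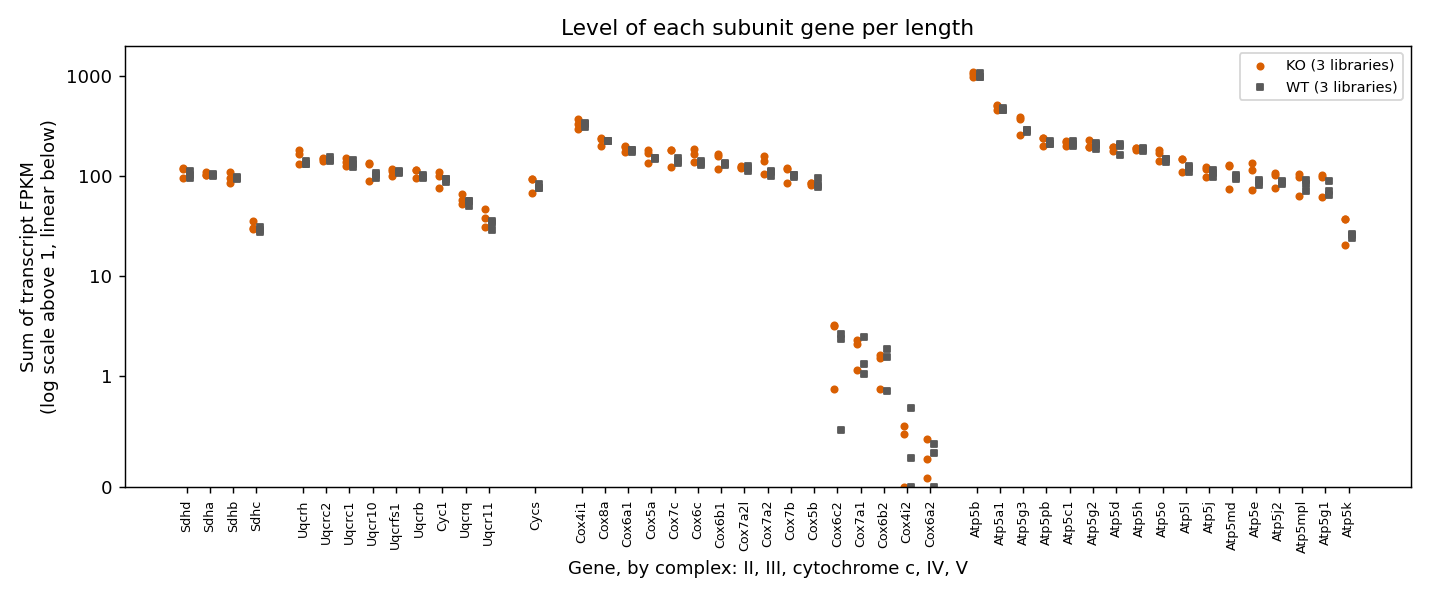
Summed transcript FPKM of each of the 47 genes in every library (log scale above 1, linear below), in order of level within complexes II, III, cytochrome c, IV and V. Orange circles are the 3 KO libraries and grey squares to their right the 3 WT libraries; Atp5b is highest and the tissue-restricted isoforms lie near or below 1.

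Other genes of the same organelle were described by lists chosen with earlier results of these data known. With all 6 libraries limma called 0 genes in these lists. Complex I, 35 genes that pass electrons from NADH to ubiquinone, had a median log2 difference of 0.090, with 0.16, 0.22 and -0.080 in KO replicates 1 to 3. Without KO replicate 3, 9 of 35 rose and 0 fell (4.0% and 6.14% of all tested genes). Of the 35 genes, 22 (62.9%) were under 1000 bases, and 11.5% of all tested genes that short rose in this fit. With the length trend removed as well, 2 of 35 rose and 0 fell (4.3% and 2.77% of all tested genes). Ndufa4, now counted as a complex IV subunit, was at 74.8, 72.8 and 53.7 FPKM in KO, against 60.2, 61.5 and 61.1 FPKM in WT, and rose without KO replicate 3 (log2 difference 0.27, limma adjusted p = 0.0201).

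Protein subunits of both ribosomes followed a like order of the KO libraries. Over 78 mitochondrial ribosomal proteins the medians were 0.11, 0.19 and -0.14 in KO replicates 1 to 3, and without KO replicate 3, 7 of 78 rose and 0 fell (4.0% and 6.14% of all tested genes). Over 77 cytosolic ribosomal proteins they were 0.14, 0.21 and -0.0055, and in the same fit 27 of 77 rose and 0 fell. With the length trend removed as well, 8 of 78 and 17 of 77 rose (4.3% of all tested genes). In that fit 0 fell in either list (2.77%). The lists were not tested against each other or against the subunit genes.

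The 6 mitochondrially encoded partners lay above the WT mean in KO replicate 3, where most nuclear subunits lay below it. Their medians were 0.072, 0.27 and 0.16 in KO replicates 1 to 3, against 0.066, -0.043 and -0.018 in WT replicates 1 to 3. All 6 were also above the WT mean in WT replicate 1, so these genes moved together within WT too. KO replicate 3 was above every WT library for 5 of 6 (33.2% of all tested genes). All 3 KO libraries were above all 3 WT libraries for 3 of 6 (4.28%) and below for 0 of 6 (6.88%). An unadjusted limma p under 0.05 was found for 2 of 6 (5.61%). mt-Co3, a core subunit of complex IV, was at 1535, 1645 and 1585 FPKM in KO, against 1429, 1371 and 1393 FPKM in WT. All 3 KO libraries were above WT, but the log2 difference of 0.18 did not pass (limma adjusted p = 0.843). mt-Co1, the catalytic subunit, was at 2739, 2976 and 3399 FPKM in KO, against 3172, 2905 and 2987 FPKM in WT, so here KO replicate 3 was the highest of the 6 libraries.

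Assembly factors, which insert cofactors and put subunits together without staying in the complex, had a median of 0.067 over 35 genes, with 0.13, 0.10 and -0.011 in KO replicates 1 to 3. Without KO replicate 3, 2 of 35 rose and 0 fell, against 4.0% and 6.14% of all tested genes. In that fit the share that rose was near that over all genes. With the length trend removed as well, 3 of 35 rose and 0 fell, against 4.3% and 2.77% of all tested genes. The 2 that rose before that removal were Uqcc2 and Cox10. Uqcc2, a complex III factor, was at 33.9, 33.1 and 21.4 FPKM in KO, against 22.2, 25.7 and 24.9 FPKM in WT. Cox10, which acts in the making of haem A for complex IV, was at 18.2, 19.7 and 13.8 FPKM in KO, against 15.3, 16.2 and 15.3 FPKM in WT. Among 12 regulators of nuclear respiratory genes, the median was -0.043, with -0.048, -0.0052 and -0.013 in KO replicates 1 to 3. It was 0.0017 with the length trend removed and 0.036 with KO replicate 3 left out as well, so its direction depended on that choice. Without KO replicate 3, 0 of 12 rose and 2 fell (4.0% and 6.14% of all tested genes). With the length trend removed as well, 1 of 12 rose and 1 fell (4.3% and 2.77%), so the calls also depended on that choice. Myc, a growth regulator, was at 80.3, 87.0 and 111 FPKM in KO, against 102, 101 and 102 FPKM in WT. Gabpb2, a partner of the ETS factor GABP, was at 6.01, 5.67 and 8.07 FPKM in KO, against 7.90, 7.38 and 7.16 FPKM in WT. For both of them, chosen because they fell without KO replicate 3 and before the length trend was removed, KO replicate 3 lay above every WT library. Over the 12 regulators it was above every WT library for 3 and below every one for 4.

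**Figure D5:**
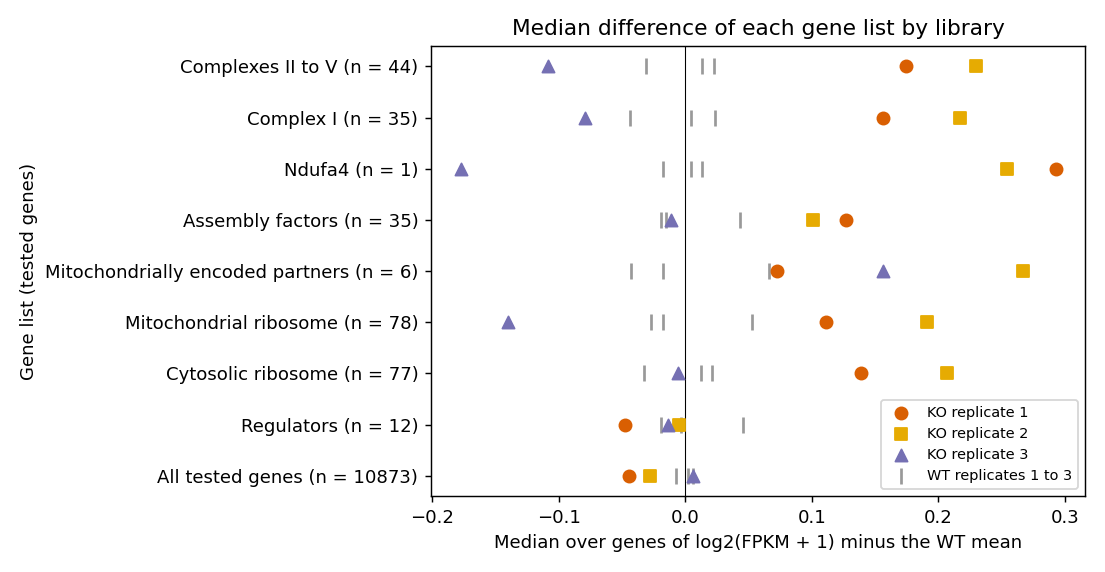
Median over the tested genes of each list (number in brackets) of the difference from the WT mean in log2(FPKM + 1), by library. Circles, squares and triangles are KO replicates 1, 2 and 3 and grey ticks the WT libraries; KO replicate 3 is at -0.11 for complexes II to V and at 0.16 for their mitochondrially encoded partners.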

How the data were processed

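Gene expression in 3 Sirt2 KO and 3 Sirt2 WT libraries of mouse Th17 cells was compared, with groups and replicate numbers taken from the sample titles. The authors deposited a table of 24182 genes and 1 of 73900 transcripts in FPKM per library, per the file headers. Both deposited tables also hold a fold column (a ratio of KO to WT), its log2, and a p-value and q-value, per the file headers. Tools in the submitters' processing notes are HISAT2, StringTie, cutadapt, FastQC, edgeR and DESeq2, with no version or role. These notes name the build mm9, but all 194 transcripts of the chosen genes had the same position in GENCODE M21 of GRCm38, so coordinates are given as GRCm38. Depth is unknown, so no counting interval is given.

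The groups were compared by limma 3.58.1 (R 4.3.3) on log2(FPKM + 1), using a mean trend for the variance, Benjamini-Hochberg adjustment over all tested genes or transcripts and a threshold of 0.05. On this scale the change of a low gene is understated. The fit was tested on simulated data. Length trends were removed by loess with a span of 0.3. Lengths were transcript lengths weighted by FPKM. The genes and lists were chosen with earlier results of these data known. Genes with values in every library were, in each complex, the 3 of smallest unadjusted p and the 2 of highest mean FPKM, every called gene, and the isoform families of Cox4i, Cox6a, Cox6b, Cox7a, Cox7b, Cox8 and Atp5g. Promoters were printed where both the NRF1 and the ETS motif were found. Values per library of other genes (Cox6c2, the named list genes and 1 transcript of Cox4i1) were chosen after they were seen. Same-numbered KO and WT libraries had correlations of 0.0067, -0.017 and -0.076 between their deviations from the group means. A further cell type marker is not reported here. Figures were drawn with matplotlib 3.10.9.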

Additional observations from a re-analysis of the deposited data

How the results depend on the processing

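Of 374 values of 25 single genes under the alternatives, 328 kept their direction and their side of the threshold, 19 came to pass it and 27 changed sign. No subunit gene passed with all 6 libraries, so none could cease to pass. The 19 arose without KO replicate 3, with or without removal of the length trend. The median over the tested subunit genes (42 to 47 of them, by filter) and that of each complex stayed above 0 under every alternative run, at 0.033 to 0.20 over all complexes. Leaving out 1 library at a time gave 0 to 16 called subunit genes and 0 to 1088 called genes in all, of 12 with all libraries. Without KO replicate 3 and the length trend the counts were 12 and 758. Over all genes the count was 5 with a filter at 5 FPKM, 7 at adjusted p under 0.01 and 19 with summed transcript FPKM. Of transcripts, 8 were called, 4 without the filter, 3 with the replicate block and 1 to 6 with 1 library left out. The replicate numbers share only a number: with the replicate block, 13 genes and 0 subunit genes were called by limma, and 2 subunit genes had an unadjusted p under 0.05.

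With the length trend removed, log2 differences changed sign to -0.026 for Atp5g2, -0.015 for Cox4i1, -0.044 for Cox8a and -0.0064 for Uqcrfs1. With KO replicate 3 left out as well they were -0.024 for Atp5g2, -0.064 for Cox7a1, -0.010 for Cox7a2l and -0.0016 for Cox8a. Scaling to a common median gave Uqcrc2 0.029 and moved the median of all genes from -0.025 to 0.011. With 1 library left out, the range was -0.0046 to 0.085 for Atp5b, -0.12 to 0.34 for Atp5g1, -0.056 to 0.063 for Atp5g2, -0.047 to 0.11 for Cox4i1, -0.039 to 0.31 for Cox7a1, -0.0045 to 0.24 for Cox7b, -0.043 to 0.080 for Cox8a, -0.0047 to 0.048 for Sdha, -0.037 to 0.027 for Uqcrc2 and -0.034 to 0.067 for Uqcrfs1. The cause of these changes of sign was not tested. Depth is unknown and 3 libraries a group limit the precision.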
